A study of Danio rerio with 16 samples.

Results

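The contractile genes of muscle and their non-muscle relatives were followed in zebrafish embryos whose GATA factors had been targeted with morpholinos. Members were genes whose symbol matched a fixed list of beginnings of sarcomere or contractile protein names. The list covered myosin heavy and light chains, actins, troponins, tropomyosins, titin, alpha-actinins, myosin binding protein C and nebulin. It also covered ryanodine receptors, calsequestrin, calcium pumps, Ldb3, Smyd1 and Unc45b. Some contractile genes, such as myhz1.1, myhz2 and des, did not match. The level of a member also had to reach 1 RPKM in 2 or more of the 16 libraries. RPKM is a read number scaled to gene length and to library size. Of the 27257 identifiers listed, 81 had a matching symbol, and 42 of these were among the 14758 genes that reached the minimum. By name, the 42 comprised 5 of 19 heart forms, 17 of 33 skeletal muscle forms, 5 of 11 forms shared by striated muscles, 11 of 12 smooth or non-muscle forms and 4 of 6 that fitted no group. A form group follows the gene's name, not the place where the gene was used. Where several identifiers carry 1 symbol, as for 16 of the 42 members, the last 5 digits of the identifier tell the copies apart.

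PolyA RNA was sequenced from whole embryos, 40 per library, as single reads of 36 bases. The 4 kinds of embryo were WT, Gata5 morphants, Gata6 morphants and embryos with both morpholinos (Gata5/6, called double morphants), and each kind was collected at bud, the end of gastrulation, and at 6-somites, for 8 groups of 2 libraries. Morpholinos are antisense oligomers that block splicing or translation of an mRNA, and their effect is transient. Protein was not measured, so how far each factor was reduced is unknown. Doses, strain, clutch and the treatment of WT embryos are not stated in the labels. By its title, the study was about GATA factors and the making of cardiomyocyte progenitors. Nothing says that the paired libraries came from separate clutches, so p-values measure the spread between these libraries, which may be technical. In whole embryos, fewer cells of a type and less RNA per cell cannot be told apart.

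Sarcomeres are the repeating contractile units of striated muscle. Thin filaments hold alpha actin with tropomyosin and the troponin complex, thick filaments hold myosin heavy and light chains, titin is the molecular spring between them, and alpha-actinin anchors thin filaments. Ryanodine receptors release the calcium that binds troponin C, and SERCA pumps, made by atp2a genes, take it up again. Heart, fast muscle, slow muscle and non-muscle cells use different genes for many of these parts. In zebrafish the first muscle cells arise beside the notochord as somites form, and heart muscle differentiates later.

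Depth over the identifiers with recovered read numbers was 14.6 to 23.3 M reads, which is a lower bound because 44 abundant genes could not be resolved. In a principal component analysis the first axis took up 50.5% of the variance and parted the stages, with scores from -39.6 to -14.6 at bud and from 14.6 to 38.4 at 6-somites. The log2 difference between the libraries of a group had an SD over genes of 0.341 to 0.475 at bud and of 0.183 to 0.228 at 6-somites. The fit below uses 1 spread per gene for both stages. Reads of the targeted gata5 itself ranged from 105.6 to 160.5 RPKM at bud and from 91.04 to 130.1 RPKM at 6-somites in libraries that had the Gata5 morpholino, against 46.29 and 52.87 RPKM in WT at bud and 26.96 and 32.31 RPKM in WT at 6-somites. A morpholino need not lower its target's mRNA, so this is no measure of the knockdown.

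The bud libraries of each group did not hold the same amount of fast muscle RNA. In all 4 groups the bud library numbered 2 stood above all 4 libraries numbered 1 for 13 of the 17 skeletal members and for 0 of the other 25 members. Over all members that is 31.0%, against 4.43% of the 14754 genes tested at bud. Of the 13 genes, 6 reach the 1 RPKM minimum only through the libraries numbered 2 or double morphant 6-somites 1, a choice that favours higher values there. Among the genes that reach the minimum in the other 11 libraries, 7 of 35 members (20.0%), all skeletal, were split in this way, against 3.86% of 14379 genes. tnni2 (ENSDARG00000029069), a copy of the fast muscle troponin I gene, stood at 18.7 RPKM in WT bud 2 and 20.2 RPKM in double morphant bud 2. It stood at 2.0 RPKM in Gata5 bud 2 and 1.52 RPKM in Gata6 bud 2, against 0.186 to 0.347 RPKM in the 4 libraries numbered 1. myl1 (ENSDARG00000014196), a fast muscle myosin light chain gene, was 31.2 times higher in WT bud 2 than in WT bud 1 and 31.9 times higher in Gata5 bud 2 than in Gata5 bud 1. For atp2a1, the fast muscle calcium pump gene, the ratio was 19.4 in WT and 16.2 in double morphants.

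At 6-somites the double morphant library numbered 1 also carried more of this RNA than its partner, with tnni2 (29069) at 6.88 against 1.52 RPKM and myl11 (ENSDARG00000053254), a regulatory light chain gene of fast muscle, at 4.41 against 1.33 RPKM. WT libraries of that stage had at most 0.194 RPKM of tnni2 (29069) and 0.303 RPKM of myl11 (53254). Among muscle genes outside the name rule, the parvalbumin gene pvalb1 stood at 29.8 RPKM in WT bud 2, 25.3 RPKM in double morphant bud 2 and 11.95 RPKM in double morphant 6-somites 1. vtg3, a vitellogenin gene whose product is a yolk protein made by the adult female's liver, followed the same libraries, at 26.3, 6.95, 3.26 and 21.4 RPKM in the WT, Gata5, Gata6 and double bud libraries numbered 2 and at most 0.0118 RPKM in those numbered 1. crp3 and gc followed them as well, and prss1 did so at bud. These genes were chosen after their values were seen. Whether this RNA came from the embryos themselves was not tested, which limits how the skeletal values of these libraries can be read. Results below are therefore also given without the 5 libraries concerned, the 4 bud libraries numbered 2 and double morphant 6-somites 1. The main fit uses 1 spread per gene for all groups. The split at bud thus widens the standard errors of the split skeletal members in every comparison, also at 6-somites. That such a member did not pass says little about whether it changed. The libraries kept were not free of vtg3. At 6-somites it stood at 0.22 and 0.255 RPKM in WT, 1.29 and 0.478 in Gata5 and 1.63 and 1.22 in Gata6 morphants. In double morphants it stood at 4.83 and 1.95 RPKM. Each morphant library of that stage thus held more vtg3 than both WT libraries. Its bearing on comparisons with WT was not tested.

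Without the 5 libraries named above, 35 of the 42 members reached the minimum and 7 did not: atp2a1, myl1 (17441), myl11 (02589), myl11 (53254), tnnt3 (30270), tnnt3 (68457) and acta2. Just inside the minimum, tnnt3 (30270), a fast troponin T gene, reached 1 RPKM in 2 libraries with a highest value of 1.75 RPKM in WT bud 2. Just outside it, tnni2 (29995) reached 1 RPKM in 1 library, WT bud 2, and casq1 (38716), a skeletal calsequestrin gene, reached 0.987 RPKM at most.

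**Figure D1:**
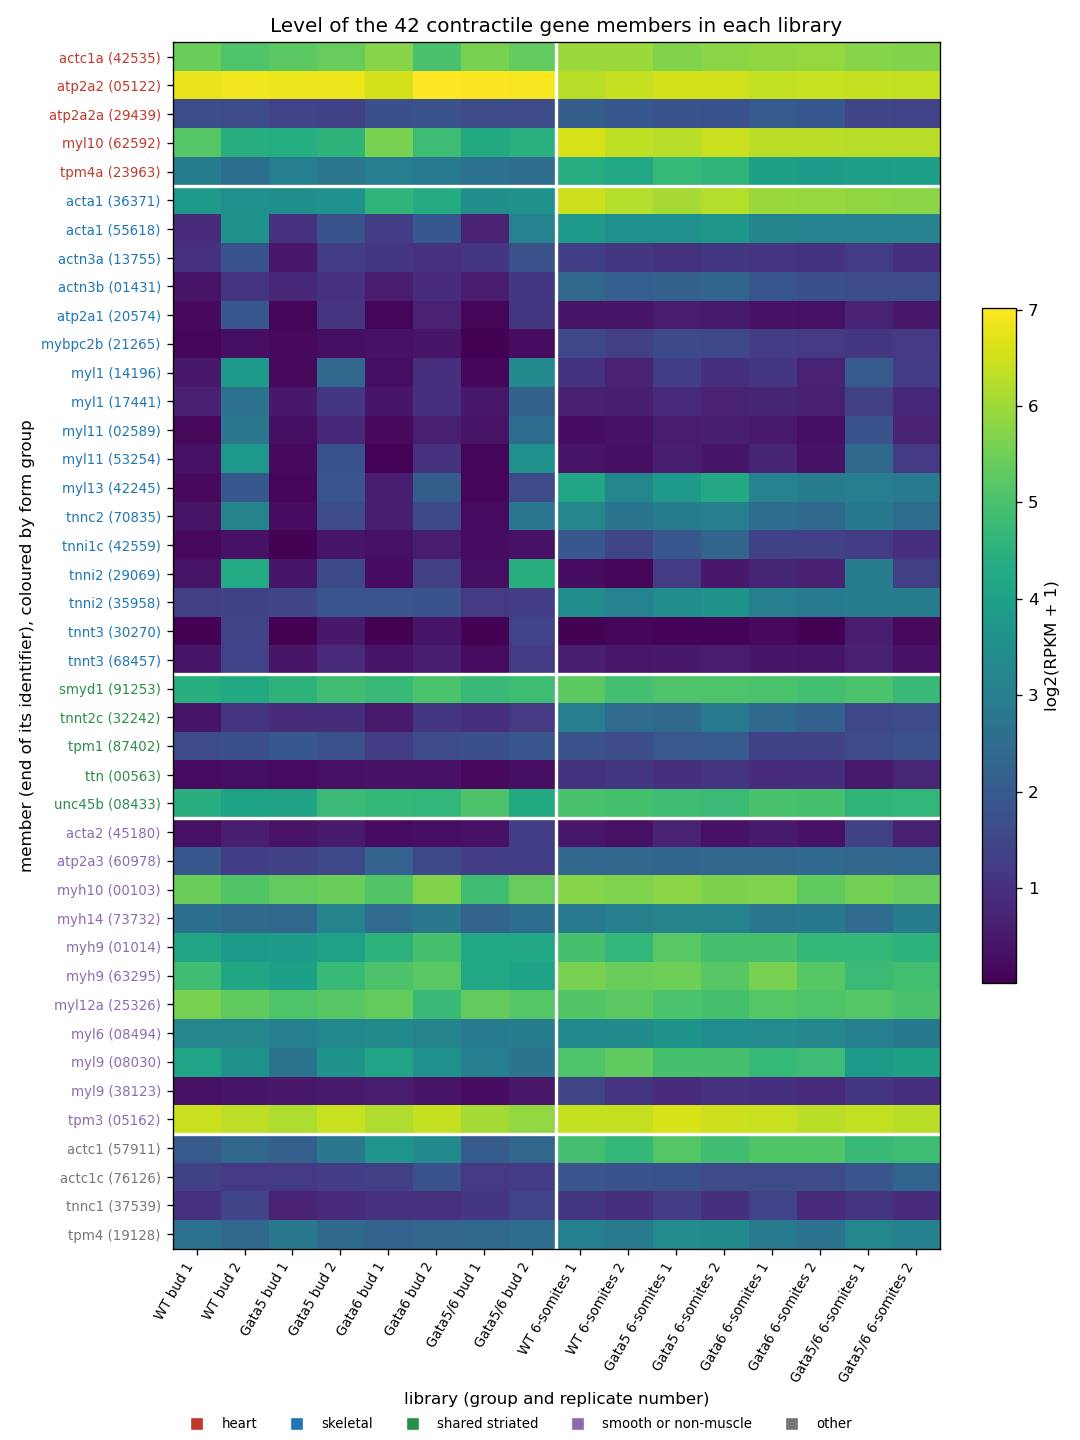
Level of each of the 42 members, as log2(RPKM + 1), in each of the 16 libraries, with rows grouped by form and the 8 bud libraries on the left. Skeletal rows such as tnni2 (29069) and myl1 (14196) are bright in WT bud 2 and double morphant bud 2, while the smooth or non-muscle rows myh10 and tpm3 are bright in all 16 libraries.

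**Figure D2:**
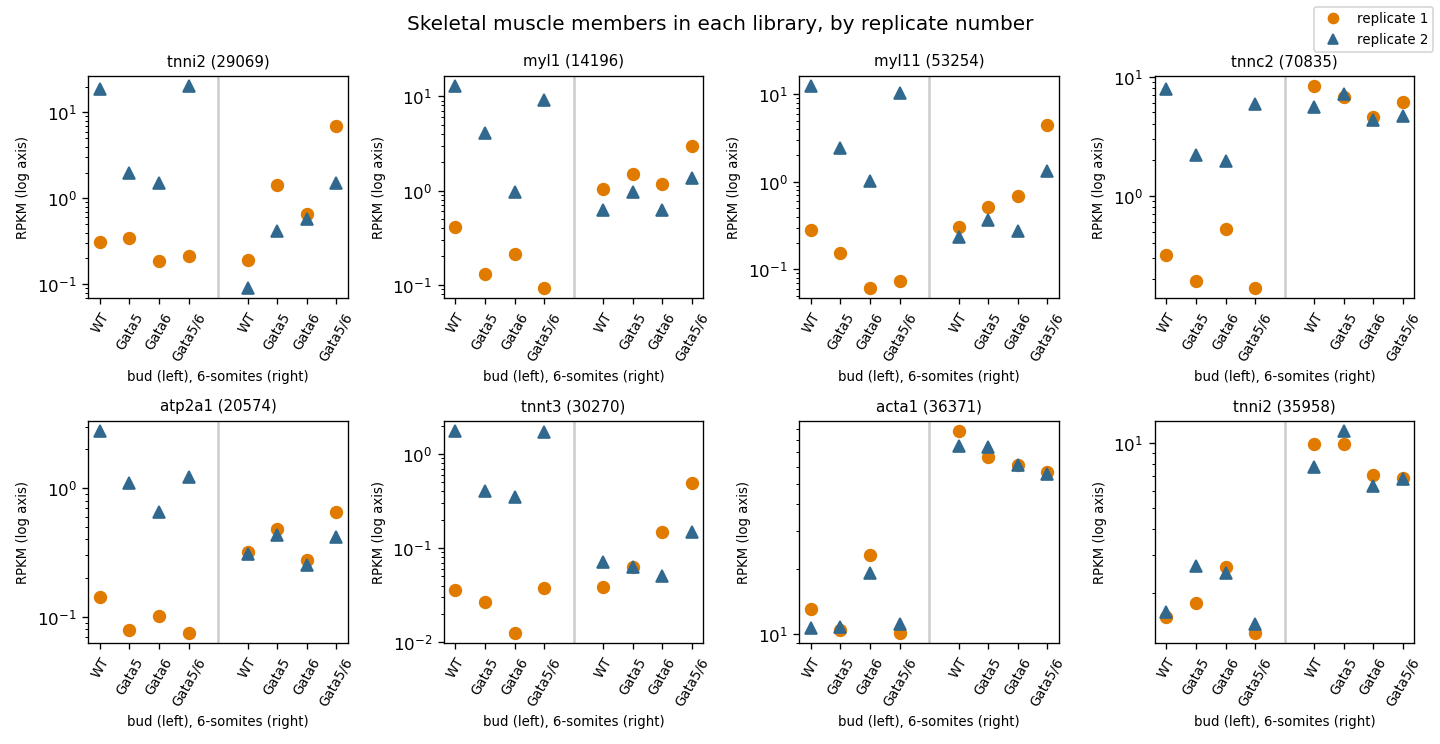
RPKM on a log axis of 8 skeletal members in each library, bud on the left and 6-somites on the right of each panel, with circles for libraries numbered 1 and triangles for libraries numbered 2. In 6 panels every bud triangle lies above every bud circle, and in the last panels, acta1 (36371) and tnni2 (35958), circles and triangles overlap at bud.

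In WT embryos 22 of the 42 contractile genes rose between bud and 6-somites and 1 fell. That is 23 of 42 past the test, which passed 29.9% of all genes, 20.3% higher and 9.56% lower. The median log2 change was 0.62 over the members and 0.08 over all genes. All 5 heart forms passed, 4 of them higher, as did 4 of 5 shared striated forms, 6 of 17 skeletal forms, 5 of 11 smooth or non-muscle forms and 3 of 4 others, all higher. The skeletal count is limited by the wide spread of the members split by library number at bud. Of the members that rose, ttn (00563), mybpc2b, tnni1c and myl9 (38123) reach the 1 RPKM minimum only through 6-somites libraries. For these the minimum itself favours higher values at 6-somites. Log2 changes here and below are of RPKM + 1 with limma's standard error, and adjusted p-values are limma's with Benjamini-Hochberg adjustment over all genes of a comparison, called at 0.05.

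Alpha actins are the proteins of the thin filament, and 2 of their genes were among those with the highest log2 changes on the RPKM + 1 scale. With limma-voom on recovered reads the order differed, with 4.15 for myl13, 3.47 for mybpc2b, 3.43 for tnni1c and 3.27 for tnnt2c above 2.97 for actc1 (57911) and 2.81 for acta1 (36371). acta1 (ENSDARG00000036371), a skeletal alpha actin gene by name, had at bud 13.1 and 10.7 RPKM in WT, 10.4 and 10.7 in Gata5, 23.2 and 19.2 in Gata6 and 10 and 11.1 in double morphants. At 6-somites it had 87.9 and 74.6 RPKM in WT, 66.8 and 74.1 in Gata5, 61.0 and 60.8 in Gata6 and 57.0 and 55.2 in double morphants. All 8 later libraries lay above all 8 earlier ones, and in WT the log2 change was 2.68 ± 0.13 with adjusted p = 2.6e-07. actc1 (ENSDARG00000057911), whose symbol is that of cardiac alpha actin, had at bud 3.16 and 4.03 RPKM in WT, 3.44 and 5.97 in Gata5, 11.7 and 9.4 in Gata6 and 3.18 and 4.01 in double morphants. At 6-somites its values were 30.0 and 24.6 RPKM in WT, 34.9 and 28.2 in Gata5, 33.7 and 34.0 in Gata6 and 25.4 and 28.0 in double morphants. The stages did not overlap, and the WT change was 2.62 ± 0.21 (adjusted p = 5.8e-06).

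actc1a (ENSDARG00000042535), a heart form by name that was abundant at both stages, stood at bud at 42.2 and 33.3 RPKM in WT, 36.9 and 40.9 in Gata5, 52.8 and 31.1 in Gata6 and 48.1 and 39.2 in double morphants. By 6-somites it was at 61.5 and 61.9 RPKM in WT, 50.7 and 54.4 in Gata5, 57.2 and 59.2 in Gata6 and 52.5 and 51.0 in double morphants. It rose less in WT, by 0.70 ± 0.20 on the log2 scale (adjusted p = 0.02). acta1 (ENSDARG00000055618), another skeletal actin copy, was at 0.884 and 11.2 RPKM in WT, 1.02 and 2.52 in Gata5, 1.45 and 2.89 in Gata6 and 0.642 and 7.76 in double morphants at bud. At 6-somites it was at 12.8 and 10.6 RPKM in WT, 10.6 and 12.2 in Gata5, 7.97 and 7.67 in Gata6 and 7.73 and 7.68 in double morphants. Its bud libraries differed by number as described above, and its WT change of 1.40 did not pass the test with all libraries. The change passed with the replicate number as a block (adjusted p = 0.032). Without the 5 libraries it was 2.75, but 1 WT bud library is left there and the spread comes from the 6-somites groups. actc1c rose by 0.54 ± 0.16 (adjusted p = 0.027), from bud values of 1.65 and 1.27 RPKM in WT, 1.29 and 1.46 in Gata5, 1.55 and 2.44 in Gata6 and 1.29 and 1.39 in double morphants. Its 6-somites values were 2.64 and 2.5 RPKM in WT, 2.47 and 2.04 in Gata5, 2.14 and 2.06 in Gata6 and 2.73 and 3.87 in double morphants. How reads shared by near-identical actin genes were assigned is not given in the sources used here, so the split between actin copies is uncertain.

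The myosin light chain genes myl13 and myl10 rose as well. myl13 (ENSDARG00000042245) was at 0.141 and 2.87 RPKM in WT, 0.0775 and 2.66 in Gata5, 0.51 and 3.27 in Gata6 and 0.11 and 2.07 in double morphants at bud. At 6-somites it was at 16.8 and 8.36 RPKM in WT, 12.9 and 17.9 in Gata5, 7.63 and 6.77 in Gata6 and 7.07 and 6.32 in double morphants. Its bud libraries also differed by number, yet both WT libraries at 6-somites lay above both at bud, with a log2 change of 2.62 ± 0.72 (adjusted p = 0.017). myl10 (ENSDARG00000062592), grouped with the heart forms by name, was the most abundant striated light chain, at bud with 35.4 and 19.7 RPKM in WT, 19.4 and 22.6 in Gata5, 47.9 and 27.4 in Gata6 and 18.1 and 21.2 in double morphants. At 6-somites it had 95.2 and 81.0 RPKM in WT, 76.5 and 86.4 in Gata5, 76.9 and 77.9 in Gata6 and 75.4 and 76.0 in double morphants. The WT rise was 1.69 ± 0.26 (adjusted p = 6.4e-04). Levels are compared between genes on the RPKM scale, which divides by gene length.

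Of 8 troponin members 3 rose in WT, and of 4 tropomyosin members 2 did, and these proteins make the thin filament respond to calcium. tnnt2c (ENSDARG00000032242), a troponin T gene, rose by 2.00 ± 0.26 (adjusted p = 2e-04) and tnni2 (ENSDARG00000035958), a fast troponin I copy that showed no split by library number, by 1.92 ± 0.15 (adjusted p = 4.7e-06). The latter went from 1.54 and 1.64 to 9.91 and 7.76 RPKM. tnni1c, a troponin I gene of slow type by name, rose by 1.43 ± 0.19. tpm4a, a tropomyosin gene that zebrafish hearts need, rose by 1.53 ± 0.14, from 6.74 and 4.86 to 20.0 and 17.1 RPKM. tpm1 was at 2.1 and 2.29 RPKM in WT at bud and 2.36 and 2.19 RPKM at 6-somites, and did not pass. The thick filament protein gene mybpc2b (1.22 ± 0.12), the alpha-actinin gene actn3b (1.5 ± 0.24) and titin (ttn, ENSDARG00000000563, 0.84 ± 0.11) rose as well.

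Among factors that help myosin fold and assemble, smyd1 (ENSDARG00000091253), which encodes a methyltransferase of muscle, rose by 0.75 ± 0.15 (adjusted p = 0.0029). Its bud values were 20.2 and 18.4 RPKM in WT, 22.9 and 28.2 in Gata5, 26.3 and 32.1 in Gata6 and 25.6 and 27.9 in double morphants. Its 6-somites values were 36.8 and 29.6 RPKM in WT, 32.8 and 33.3 in Gata5, 31.7 and 29.5 in Gata6 and 31.6 and 26.3 in double morphants. unc45b, a myosin chaperone gene, was expressed at a like level, at bud with 20.4 and 15.8 RPKM in WT, 15.7 and 26.6 in Gata5, 24.8 and 24.1 in Gata6 and 32.2 and 18.3 in double morphants. At 6-somites it had 31.0 and 30.7 RPKM in WT, 27.7 and 26.6 in Gata5, 31.3 and 30.8 in Gata6 and 23.2 and 24.3 in double morphants. It rose by 0.75 ± 0.25 in WT (adjusted p = 0.04), and this call was lost with the replicate number as a block (adjusted p = 0.052).

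The single member that fell was atp2a2 (ENSDARG00000005122), a gene of the SERCA2 calcium pump, which is used in most cell types and not in heart alone. It had the highest mean level of all members over the 16 libraries, at bud with 110.0 and 115 RPKM in WT, 114 and 114 in Gata5, 93.9 and 128 in Gata6 and 125 and 121 in double morphants. At 6-somites it had 75.8 and 83.8 RPKM in WT, 93.6 and 92.1 in Gata5, 81.7 and 85.5 in Gata6 and 84.0 and 82.7 in double morphants. The log2 change in WT was -0.50 ± 0.13 (adjusted p = 0.012). The other SERCA2 copy, atp2a2a (ENSDARG00000029439), rose by 0.35 ± 0.10 (adjusted p = 0.017) from 2.23 and 2.06 to 3.21 and 2.85 RPKM.

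Among smooth and non-muscle forms, myl9 (ENSDARG00000008030), the regulatory light chain gene of smooth muscle and non-muscle myosin, rose by 1.33 ± 0.28 (adjusted p = 0.0042). The non-muscle myosin heavy chain genes myh9 (63295) and myh9 (01014) rose by 1.01 ± 0.26 and 0.83 ± 0.18. The 3 most abundant non-muscle members did not pass. tpm3, a tropomyosin gene, was at 86.9 and 79.2 RPKM in WT, 69.8 and 86.0 in Gata5, 72.0 and 84.2 in Gata6 and 66.6 and 58.5 in double morphants at bud. At 6-somites it was at 84.0 and 83.9 RPKM in WT, 98.2 and 89.0 in Gata5, 84.6 and 76.7 in Gata6 and 81.9 and 77.1 in double morphants. The stages overlapped. myh10, a non-muscle myosin heavy chain gene, was at 43.0 and 33.7 RPKM in WT, 39.4 and 42.2 in Gata5, 33.9 and 50.2 in Gata6 and 28.3 and 41.0 in double morphants at bud. Its values at 6-somites were 52.7 and 49.3 RPKM in WT, 55.1 and 49.0 in Gata5, 49.4 and 38.3 in Gata6 and 45.8 and 41.3 in double morphants. Over all groups its stages overlapped too. myl12a, a regulatory light chain gene, had at bud 47.5 and 38.7 RPKM in WT, 33.3 and 35.4 in Gata5, 40.2 and 25.7 in Gata6 and 39.5 and 34.9 in double morphants. At 6-somites it had 34.2 and 36.9 RPKM in WT, 31.5 and 30.8 in Gata5, 35.2 and 33.2 in Gata6 and 34.9 and 31.2 in double morphants. Its WT libraries were lower at 6-somites without passing the test (-0.26 ± 0.17). tpm4, which fitted no form group, rose by 0.49 ± 0.14 (adjusted p = 0.026), with bud values of 5.14 and 4.14 RPKM in WT, 6.12 and 4.41 in Gata5, 3.63 and 4.05 in Gata6 and 4.16 and 4.75 in double morphants. Its later values were 7.27 and 6.5 RPKM in WT, 9.46 and 9.1 in Gata5, 6.31 and 5.48 in Gata6 and 8.35 and 7.56 in double morphants.

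The 11 skeletal members that did not pass included 9 with a negative WT change, the lowest -2.16 ± 1.29 for tnni2 (29069), where WT bud 2 held 18.7 RPKM and the other WT libraries at most 0.315 RPKM. With the replicate number as a block, 4 of them passed as lower, tnni2 (29069), myl11 (53254), myl1 (17441) and atp2a1, while acta1 (55618) and tnnc2 passed as higher, for 28 members in all, where 34.9% of all genes passed. Of these, myl11 (53254), myl1 (17441) and atp2a1 reach the minimum only through the libraries high in fast muscle genes. tnni2 (29069) reaches 1 RPKM in 2 libraries outside those, and its fall rests on WT bud 2. Nothing is therefore read from the 4 lower calls. Without the 5 libraries 1 WT bud library was left, and the spread came from the 6-somites groups. The 23 members called with all libraries kept their direction there. Leaving out 1 library, the count was 13 without WT 6-somites replicate 1 and 15 without WT bud replicate 2, and it was 15 with a minimum of 5 RPKM.

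**Figure D3:**
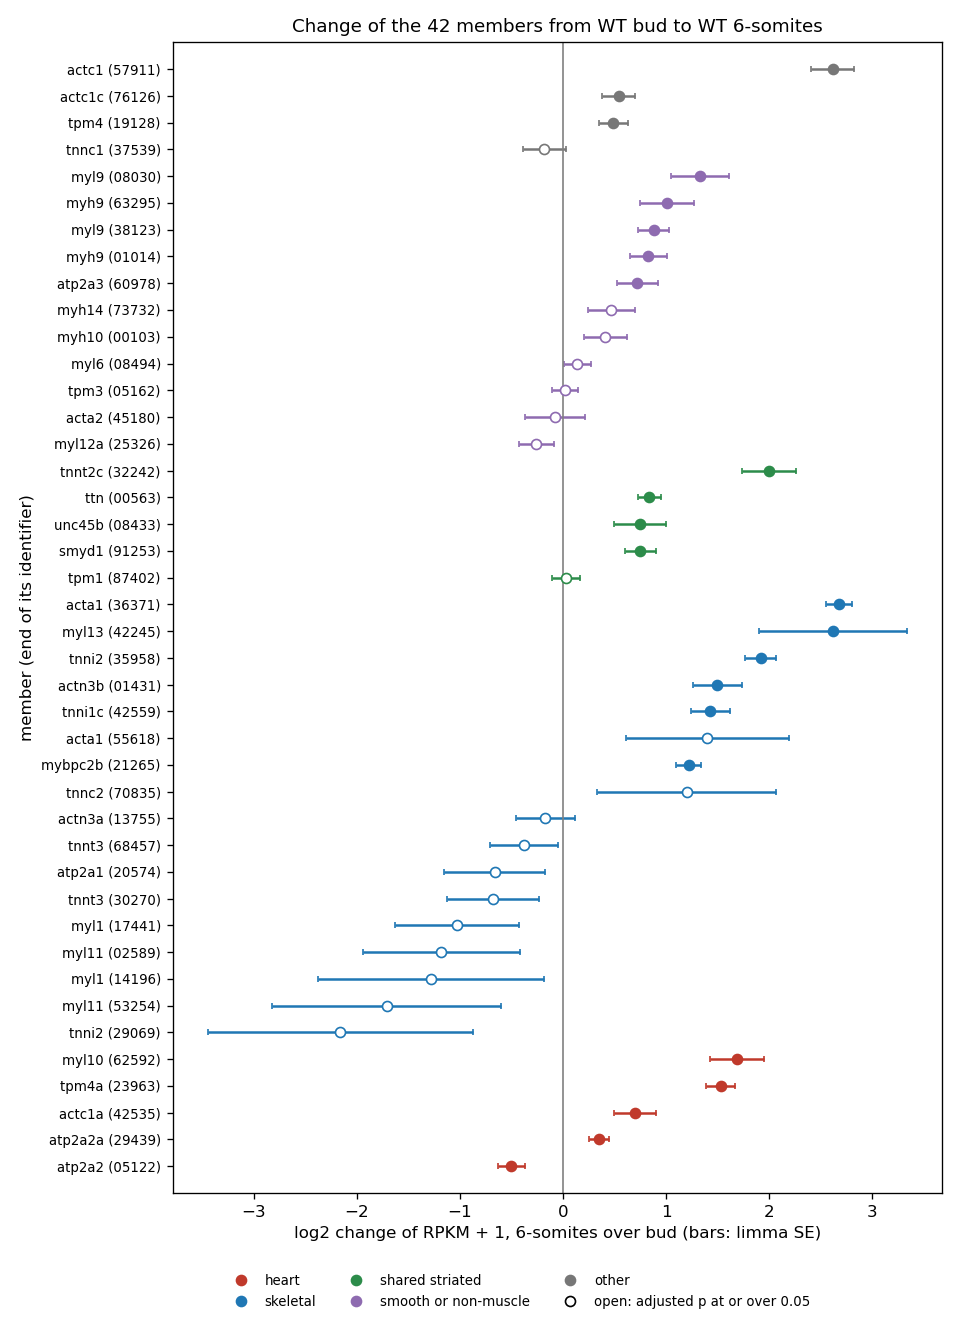
Log2 change of RPKM + 1 from WT bud to WT 6-somites for the 42 members, by form, with bars of 1 limma SE and filled points for adjusted p under 0.05. Actins acta1 (36371) and actc1 (57911) lie at 2.68 and 2.62, atp2a2 is the only filled point below 0, and 9 skeletal members lie below 0 with wide bars.

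Genes of related lists passed in the same WT comparison, in which 29.9% of all genes passed, 20.3% higher and 9.56% lower. Of 22 tested muscle genes outside the name rule 10 were higher and 1 lower, of 17 myogenic and somite regulators 8 were higher and 2 lower, and of 8 cardiac regulators 5 were higher and 1, gata5, lower. myog, the differentiation factor of skeletal muscle, went from 0.14 and 0.16 to 4.54 and 4.42 RPKM. Markers of blood and vessel precursors, 5 of 5 of them higher, moved with the stage too. Other markers passed in both directions. Of 7 yolk syncytial layer markers 3 were higher and 2 lower, and of 9 epidermal markers 1 was higher and 2 lower. Of 8 neural plate markers 2 were higher and 1 lower, of 2 notochord markers 1 was higher and 1 lower, and of 3 hatching gland markers 2 were higher.

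Of the heart muscle genes proper, myl7, cmlc1 and myh6 were hardly detected. No listed identifier carried the symbols vmhc, tnnt2a, smyhc1 or actc1b, so genes under those names could not be followed. myl7 and cmlc1, the light chain genes that mark zebrafish heart muscle, had 2 to 9 and 1 to 7 reads in any library, and the copies of myh6 had 1 to 11 and 1 to 9 reads. At this depth none of them passed in any comparison, also with no minimum set. The smallest read number recovered for any gene was 1, so a value of 1 need not mean that a read was found. In all, 14 of 19 heart forms stayed under the minimum, the highest of them myh7ba with 0.79 RPKM, and 39 of the 81 named genes did so in all. tnnt2 (20610), which carries the symbol of cardiac troponin T, was grouped with the shared striated forms and is not among the 19. It had 41 and 25 reads in WT at 6-somites and is described below.

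2 of the 5 striated actin genes among the members, actc1 (57911) and acta1 (36371), were higher in Gata6 morphants than in WT at bud. The comparison asked what the Gata6 morpholino changed at the end of gastrulation. Of 42 members 2 were higher and 0 lower, where 1.63% of all genes passed and 0.854% were higher. actc1 (57911), whose values are given above, was at 11.7 and 9.4 RPKM in Gata6 morphants against 3.16 and 4.03 RPKM in WT, a log2 change of 1.33 ± 0.21 with adjusted p = 0.015. acta1 (36371) was at 23.2 and 19.2 against 13.1 and 10.7 RPKM, a change of 0.79 ± 0.13 with adjusted p = 0.016. For both genes the Gata6 libraries also lay above all 6 other bud libraries. The other 3 did not pass, with log2 changes of 0.11 ± 0.20 for actc1a, 0.27 ± 0.16 for actc1c and -0.64 ± 0.79 for acta1 (55618).

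Double morphants, which received the Gata6 morpholino too, did not show this rise. In a comparison added after the values were seen, double morphants were lower than Gata6 morphants at bud for acta1 (36371), by -0.94 ± 0.13 (adjusted p = 0.0055), and for actc1 (57911), by -1.33 ± 0.21 (adjusted p = 0.0097). These were 2 of 42 members lower and 0 higher, where 2.61% of all genes passed and 1.5% were lower. The count fell without double morphant bud replicate 1 and rose without either Gata6 bud library. Without the 5 libraries members passed in both directions. These fits leave 1 library in a group, so nothing is read from their counts. With only the bud libraries fitted the count was 0. Among regulators, myog was higher in Gata6 morphants at bud (0.52 ± 0.10, adjusted p = 0.032), at 0.73 and 0.57 RPKM against 0.14 and 0.16 RPKM in WT, and hes6 (19335), a transcription regulator of differentiation, was lower (-0.53 ± 0.10, adjusted p = 0.028). Of 22 muscle genes outside the rule 0 passed, with limma's unadjusted p under 0.05 for 2 higher and 1 lower.

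Beside these actins, 3 of 5 markers of blood and vessel precursors were higher in Gata6 morphants at bud. The summed level of the 5 was 19.4 and 15.5 RPKM against 8.47 and 6.59 RPKM in WT. Scores on the stage component were -14.6 and -26.9 for Gata6 and -24.6 and -39.6 for WT bud libraries. Both notochord markers passed, col8a1a higher (0.80 ± 0.15) and noto lower (-0.88 ± 0.16), as did 2 of 8 neural plate markers, mab21l2 higher (1.49 ± 0.29) and her4.1 lower (-0.62 ± 0.11). The part of these differences in the actin result was not tested. Both actins also rose in WT between the stages, a comparison that shares the WT bud libraries. Both calls remained without the 5 libraries, where 4.19% of all genes passed, but that sets 1 library against 1 with the spread taken from the 6-somites groups. The SD over genes there was 0.183 to 0.228, against 0.426 in WT and 0.475 in Gata6 morphants at bud. With only the 8 bud libraries fitted 0 members passed, as did 0.0% of all genes, and without WT bud replicate 2 the count was also 0. A block for replicate number gave 4, adding smyd1 (91253) and myh9 (01014), where 3.2% of all genes passed. Without Gata6 bud replicate 1 the count rose, but 1 Gata6 bud library is left there.

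Gata5 and double morphants at bud gave no call among the members, which says little about the skeletal members split by library number, whose spread is wide. In Gata5 morphants 0 of 42 passed against 0.359% of all genes, and 1 higher and 3 lower had unadjusted p under 0.05, as did 10.7% of all genes. limma-voom gave 0 too. In double morphants 0 of 42 passed against 1.59%, again with 1 higher and 3 lower whose unadjusted p was under 0.05, against 14.6% of all genes, and 0 with limma-voom. myl9 (08030) had the values 16.3 and 11.3 RPKM in WT, 5.5 and 11.4 in Gata5, 16.2 and 10.5 in Gata6 and 7.22 and 5.57 in double morphants at bud. Its double morphant libraries lay below both WT libraries, with a log2 change of -0.99 ± 0.28 and adjusted p = 0.11. Without the 5 libraries, 4 members passed in each comparison. myl9 (08030) was lower in both, by -1.41 ± 0.13 in Gata5 morphants and by -1.08 ± 0.13 in double morphants, as were atp2a3 and myl10. myl12a was lower in Gata5 morphants by -0.50 ± 0.10, while unc45b was higher in double morphants by 0.63 ± 0.09. Of all genes 5.12% and 12.1% passed there, from 1 library a group whose spread is assumed to be that of the 6-somites groups.

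Double morphants at 6-somites had less mRNA of 5 contractile genes than WT. The comparison asked what both morpholinos together changed as somites formed. Of 42 members 5 passed, all lower, against 3.8% of all genes, 1.78% higher and 2.02% lower. A pseudocount of 0.1 left 2 calls, myl9 (08030) and atp2a2a, and a minimum of 5 RPKM left 1, myl9 (08030). That minimum took atp2a2a and ttn (00563) out of the test, while tnnt2c and acta1 (36371) were tested and lost their calls. The 5 came from 4 form groups: the calcium pump gene atp2a2a, the non-muscle light chain gene myl9 (08030), the troponin T gene tnnt2c, the skeletal actin gene acta1 (36371) and titin (00563). The median log2 change was -0.21 over the members and -0.02 over all genes. Changes were below 0 for 31 of 42 members and for 7905 of 14751 genes. With scaling by median of ratios these counts were 29 and 7581. By form the medians were -0.25 for heart, -0.36 for shared striated, -0.11 for skeletal, -0.22 for smooth or non-muscle forms and 0.08 for the 4 others. Of the 17 skeletal members 10 lay below 0 and 7 above. The 7 were fast muscle genes split by library number at bud. Each was also higher in double morphant 6-somites 1 than in its partner. The skeletal median and the member counts below 0 mix these genes with the others. They do not show that skeletal genes changed less than other forms.

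atp2a2a, at bud with 2.23 and 2.06 RPKM in WT, 1.75 and 1.65 in Gata5, 2.29 and 2.48 in Gata6 and 2.09 and 2.04 in double morphants, had at 6-somites 3.21 and 2.85 RPKM in WT, 2.6 and 2.43 in Gata5, 3.03 and 2.87 in Gata6 and 1.79 and 1.67 in double morphants. It differed from WT by -0.56 ± 0.10 (adjusted p = 0.0089), and the double morphants lay below the libraries of all 3 other kinds. Its abundant copy atp2a2 did not pass, at 84.0 and 82.7 RPKM against 75.8 and 83.8 RPKM in WT. myl9 (08030) had at 6-somites 32.9 and 38.6 RPKM in WT, 30.6 and 30.7 in Gata5, 25.1 and 27.0 in Gata6 and 13.2 and 15.0 in double morphants. The difference from WT was -1.28 ± 0.28 (adjusted p = 0.028), and again double morphants lay below the 6 other libraries. The other myl9 copy (38123), a weakly expressed gene, was at 1.17 and 0.932 RPKM against 1.8 and 1.09 RPKM and did not pass.

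tnnt2c had values at bud of 0.33 and 1.1 RPKM in WT, 0.861 and 0.901 in Gata5, 0.432 and 1.19 in Gata6 and 0.95 and 1.26 in double morphants. At 6-somites they were 7.08 and 4.51 RPKM in WT, 4.46 and 6.27 in Gata5, 4.33 and 3.58 in Gata6 and 1.91 and 2.1 in double morphants. The double morphants were lower than all 6 other libraries and differed from WT by -1.15 ± 0.26 (adjusted p = 0.034). Titin (00563) was at 0.163 and 0.222 RPKM in WT, 0.17 and 0.249 in Gata5, 0.285 and 0.276 in Gata6 and 0.127 and 0.205 in double morphants at bud. At 6-somites it was at 1.07 and 1.21 RPKM in WT, 0.985 and 1.14 in Gata5, 0.884 and 0.905 in Gata6 and 0.443 and 0.699 in double morphants. It reaches 1 RPKM only in both WT libraries and Gata5 library 2 of that stage. A minimum met in this way favours higher WT values. Its difference from WT was -0.45 ± 0.11 (adjusted p = 0.049) on the log2(RPKM + 1) scale, which understates changes of weakly expressed genes, and -1.05 ± 0.23 with limma-voom on recovered reads. acta1 (36371), at 57.0 and 55.2 RPKM against 87.9 and 74.6 RPKM, differed by -0.52 ± 0.13 (adjusted p = 0.046), while actc1 (57911) was at 25.4 and 28.0 RPKM against 30.0 and 24.6 RPKM (-0.03 ± 0.21).

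**Figure D4:**
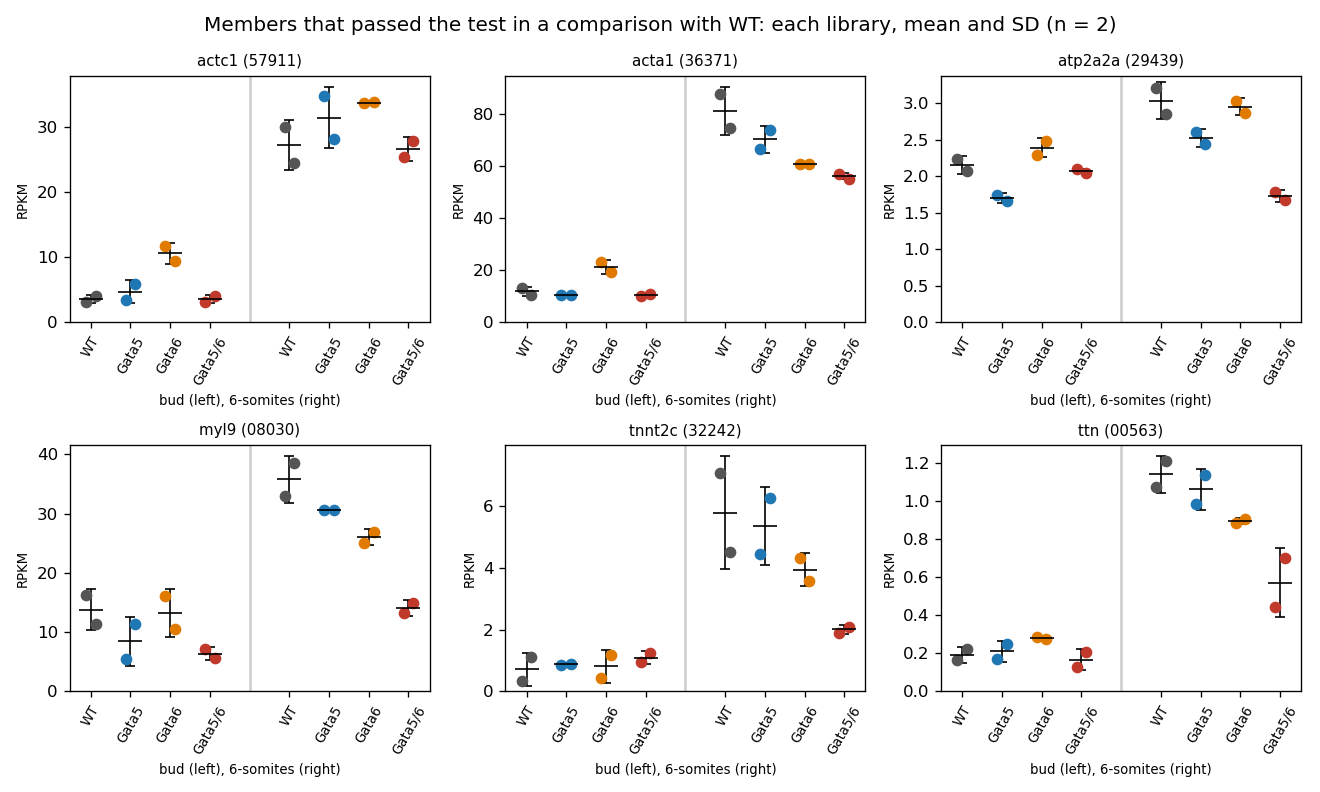
RPKM of the 6 members that passed the test in a comparison with WT, in each library (points), with the mean and SD of 2 libraries (lines), bud on the left and 6-somites on the right of each panel. actc1 (57911) and acta1 (36371) stand out in Gata6 morphants at bud, and atp2a2a, myl9 (08030), tnnt2c and ttn (00563) are lowest in double morphants at 6-somites.

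**Figure D5:**
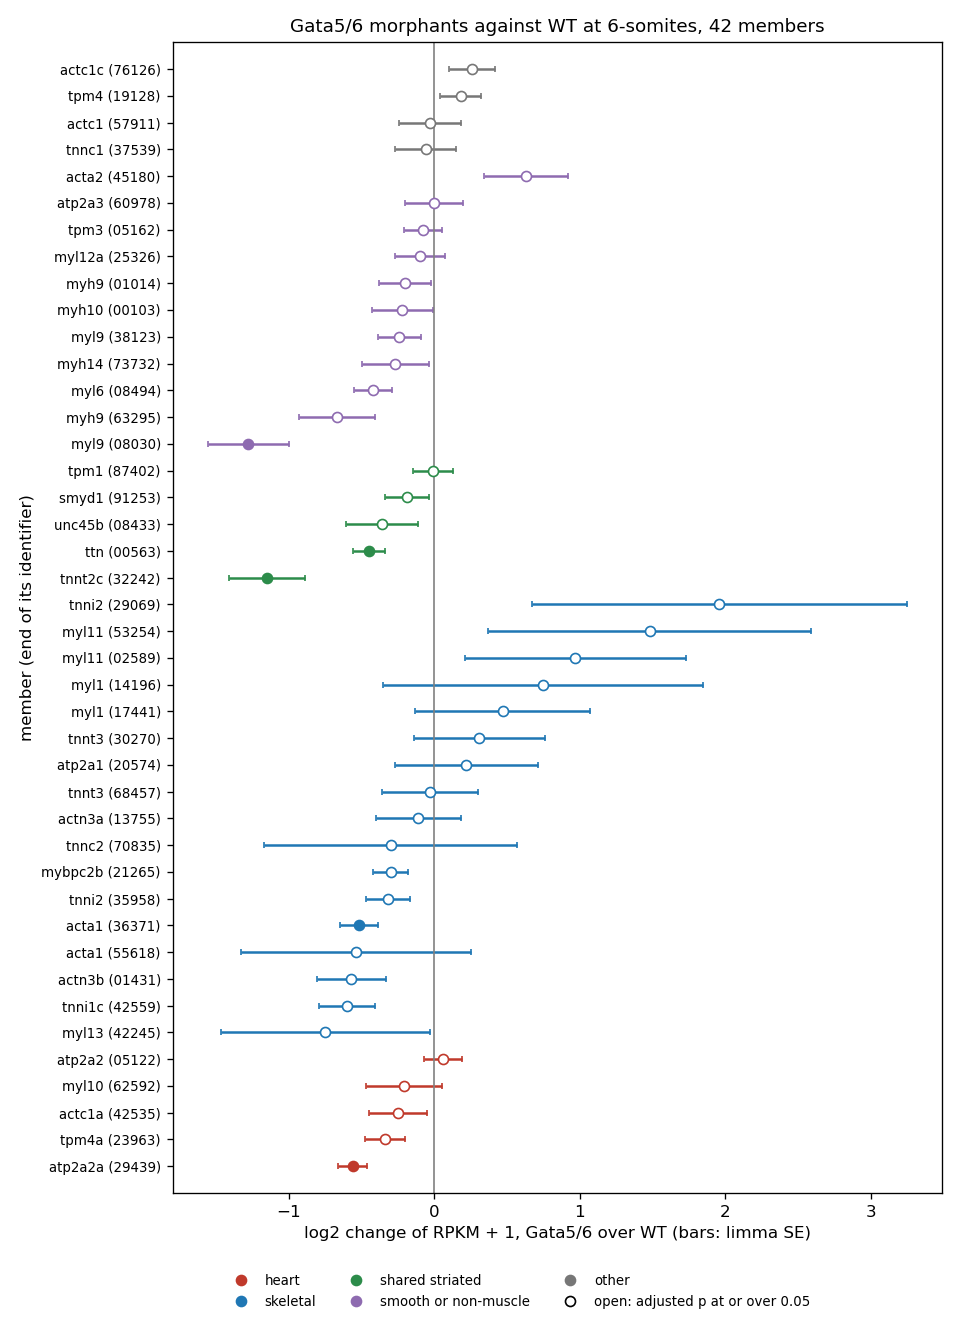
Log2 change of RPKM + 1 of double morphants against WT at 6-somites for the 42 members, by form, with bars of 1 limma SE and filled points for adjusted p under 0.05. The 5 filled points lie below 0, from -0.45 for ttn (00563) to -1.28 for myl9 (08030), and tnni2 (29069) and myl11 (53254) lie farthest above 0 with wide bars.

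With only the 8 libraries of 6-somites fitted, 20.2% of all genes and 14 members passed, the 5 above and 9 more. Lower were acta1 (55618), actc1a, actn3b, myh9 (63295), myl6, tpm4a and unc45b, with log2 changes from -0.67 to -0.25, and higher were tnni2 (29069) and myl11 (53254), the genes for which double morphant 6-somites 1 stood apart. Without the 5 libraries 5 members and 7.8% of all genes passed. Of the 5 calls above, atp2a2a, myl9 (08030) and acta1 (36371) remained, with unc45b lower beside them. myl11 (53254) was the other, but it reached 1 RPKM in 1 of the 11 libraries left, the double morphant one at 1.33 RPKM, and is among the 42 only through those left out. The double morphants have 1 library there. The count was 1 without WT 6-somites replicate 2, and 0 without WT 6-somites replicate 1 or without either double morphant library.

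Related lists were counted in the same comparison. Of 22 tested muscle genes outside the rule 2 passed, both lower: xirp1 (30722), which encodes an actin-binding protein of striated muscle (-0.86 ± 0.15, 0.53 and 0.80 RPKM against 2.23 and 1.82 RPKM), and tmod1, which encodes a cap of thin filaments (-0.72 ± 0.17, 1.02 and 0.922 RPKM against 2.18 and 2.28 RPKM). Of 17 myogenic and somite regulators 1 passed, mespaa, a gene of somite segmentation, which was lower (-0.99 ± 0.24, adjusted p = 0.048, and 0.056 with the replicate number as a block). These counts of 2 in 22 and 1 in 17, all lower, stand beside 3.8% of all genes passing and 2.02% lower. Nothing further is read from counts this small. myog was at 4.16 and 4.36 RPKM against 4.54 and 4.42 RPKM in WT. Of 8 cardiac regulators 3 passed, with tbx20 (-1.03 ± 0.18) and tmem88b (-0.58 ± 0.14) lower and gata5 higher.

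Markers of other cells moved beside these genes. Of 5 markers of blood and vessel precursors 2 were lower, kdr and gata1a, although their summed level was 75.7 and 77.1 RPKM in double morphants and 78.6 and 78.2 RPKM in WT. Of 7 markers of the yolk syncytial layer 3 were higher and 1 lower. The summed level of the 7 was lower, at 1090 and 1180 RPKM in double morphants against 2220 and 2160 RPKM in WT. Of 9 epidermal, 8 neural plate, 2 notochord and 3 hatching gland markers 0 passed, with limma's unadjusted p under 0.05 for 2 of these 22. The smallest read number recovered for any gene was 1, so no marker could be listed at 0. Scores on the stage component were 14.6 and 21.8 for the double morphants and 38.4 and 34.7 for WT. All 5 lower members are also among those that rose in WT between the stages, which shares the WT 6-somites libraries with this comparison. What part these differences had in the members' values was not tested.

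Among the genes under the minimum, tnnt2 was lower in double and Gata5 morphants at 6-somites. tnnt2 (ENSDARG00000020610), which carries the symbol of cardiac troponin T, had 41 and 25 reads in WT, 5 and 7 in Gata5, 9 and 7 in Gata6 and 6 and 2 in double morphants. All 6 morphant libraries lay below both WT libraries, and at bud all 8 libraries held 2 to 8 reads. Fitted with no minimum, it differed from WT by -0.42 ± 0.06 in double morphants (adjusted p = 0.0067) and -0.37 ± 0.06 in Gata5 morphants (adjusted p = 0.036), where 0.457% of all genes passed, and its Gata6 change of -0.35 ± 0.06 did not pass (adjusted p = 0.06). With limma-voom and no minimum the double morphant call held (-2.94 ± 0.53, adjusted p = 0.011) and the others did not (adjusted p = 0.13 and 0.23). It rose in WT between the stages by 0.38 ± 0.06 (adjusted p = 0.0016). tnnt2 was singled out after its values were seen.

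Of the 39 genes under the minimum, 3 were lower in double morphants at 6-somites in the fit with no minimum, against 2.97% of all genes. Beside tnnt2 these were the second titin identifier, ttn (28213), at 0.218 and 0.323 RPKM against 0.484 and 0.513 RPKM in WT, and neb, the nebulin gene, at 0.124 and 0.137 RPKM against 0.319 and 0.283 RPKM. With limma-voom ttn (28213) passed and neb did not. In WT between the stages, 7 of 38 were higher, against 21.0% of all genes called in either direction, among them myh7ba and ryr1 (11422), a skeletal ryanodine receptor gene.

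Single morphants at 6-somites gave no call. This says little about the skeletal members split by library number at bud, whose spread is wide in this fit. In Gata5 morphants 0 of 42 passed against 0.474% of all genes, and unadjusted p was under 0.05 for 2 higher and 0 lower, against 11.1%. In Gata6 morphants 0 of 42 passed against 0.339%, and unadjusted p was under 0.05 for 5, all lower, against 9.08%. limma-voom also gave 0 in each. With only the 6-somites libraries fitted, 2 members passed in Gata5 morphants, tpm4 and tpm4a, both higher, as did 8.46% of all genes. In Gata6 morphants 4 passed there, all lower, which were acta1 (36371), acta1 (55618), myl9 (08030) and tpm1, as did 6.28% of all genes. Without the 5 libraries acta1 (55618) and myl9 (08030) were lower in Gata6 morphants, and 4.82% of all genes passed.

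Double morphants were also set against each kind of single morphant at 6-somites. Against Gata5 morphants 3 of 42 members were lower and 0 higher, where 3.18% of all genes passed and 2.38% were lower. tnni1c was at 1.36 and 0.952 RPKM against 2.81 and 3.91 RPKM (-1.01 ± 0.19, adjusted p = 0.021), and tpm4a at 14.3 and 14.6 RPKM against 25.3 and 23.3 RPKM (-0.71 ± 0.14, adjusted p = 0.026). myl6, an essential light chain gene of smooth and non-muscle myosin, was at 7.26 and 6.22 RPKM against 11.5 and 9.74 RPKM (-0.59 ± 0.13, adjusted p = 0.035). For these genes Gata5 morphants and not WT held the highest values. The count was 0 without any 1 of the 4 libraries. With only the 6-somites libraries fitted it was 15, and 20.5% of all genes passed. limma-voom called 6, all lower, and 2 of them were among the 3 above. A block for replicate number gave 5, adding tnnt2c and myl13, where 4.09% of all genes passed. Against Gata6 morphants 1 of 42 was lower, atp2a2a (-0.53 ± 0.10, adjusted p = 0.036), where 0.59% of all genes passed and 0.325% were lower, and 0 without any 1 of the 4 libraries.

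If the morpholinos acted additively on the log2 scale, the double morphant change would equal the Gata5 change plus the Gata6 change. Of 42 members 0 departed from that sum at 6-somites, against 0.0136% of all genes. Unadjusted p was under 0.05 for 1 above and 3 below it, against 6.31%, and limma-voom gave 0. For atp2a2a the departure was -0.34 ± 0.14 and for tnnt2c -0.63 ± 0.37. The difference between the double morphant effects at the stages passed for 0 of 42, against 0.00678%, with unadjusted p under 0.05 for 6, all lower, against 8.72%, and 0 with limma-voom. tnnt2c had the log2 change 0.33 at bud and -1.15 at 6-somites, a difference of -1.48 ± 0.37 (adjusted p = 0.23). The 5 calls at 6-somites are therefore not shown to be particular to that stage.

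For Gata6 morphants the same difference, added after the values were seen, passed for 0 of 42 members against 0.0203% of all genes, with unadjusted p under 0.05 for 7, all lower, against 7.92%. acta1 (36371) had a log2 change of 0.79 at bud and -0.41 at 6-somites, a difference of -1.19 ± 0.18 with adjusted p = 0.063. limma-voom passed it (-1.24 ± 0.19, adjusted p = 0.028). The count of members was 1 without WT bud replicate 1, 2 without Gata6 bud replicate 1 and 1 without Gata6 bud replicate 2. actc1 (57911) stood above WT at both stages, with changes of 1.33 and 0.31 and a difference of -1.02 ± 0.29 (adjusted p = 0.39).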

How the data were processed

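RNA-seq of polyA RNA from whole zebrafish embryos was deposited as RPKM values per Ensembl gene, 1 table per stage, which the authors computed on genome build Zv9, per the submitters' processing notes. Which aligner and counting rule were used, whether strand was used and how reads shared by near-identical genes were treated is not given in the sources used here. Symbols were found for 19258 of 27257 identifiers. The members, form groups and gene lists were chosen with earlier results of these data known. Since the tables hold no counts, log2(RPKM + 1) was fitted with limma 3.58.1 (trended prior, R 4.3.3). The fit used 1 coefficient per group and 8 residual degrees of freedom. It covered the genes at 1 RPKM or more in at least 2 libraries, 14754 for bud, 14755 for 6-somites and 14751 across stages. All tests were two-sided. Their p-values were adjusted after Benjamini and Hochberg over the genes fitted, with 0.05 as the threshold.

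There were 13 comparisons, 2 of them added after the data were seen. Named were the members called against WT, the 5 with the highest WT change between stages, the most abundant of each form, and myl7, cmlc1 and myh6, for which ranges stand for single values. Whole reads were recovered from the RPKM steps for 99.84% of identifiers (within 0.01 reads for low values and 0.15 for the highest) and fitted with limma-voom as an alternative, which called 678 genes in double morphants against WT at 6-somites where the fit of RPKM called 560. Alternatives also changed the pseudocount, the minimum, the scaling, the stages fitted and the libraries used. Library numbers paired the groups: deviations of same-numbered libraries correlated by 0.189 to 0.557 at bud and 0.23 to 0.533 at 6-somites, over 6 pairs of groups each. The main fit leaves this pairing out, and the alternative with a block for replicate number takes it in. No sequences or coordinates are given.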

Additional observations from a re-analysis of the deposited data

How the results depend on the processing

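No member changed direction under any alternative in a comparison where it was called. Over the 36 calls of members, 343 alternative values stayed past the threshold and 90 did not. Of the 36 calls, 23 are those between the WT stages, so the tally mostly describes that comparison and not the morphants. Alternatives in which a member was no longer tested are not in the tally. With a pseudocount of 0.1, 2 members were called in double morphants against WT and 1 against Gata5 morphants at 6-somites. A minimum of 5 RPKM gave 15 in WT between the stages, 1 in double morphants against WT and 0 against Gata6 morphants at 6-somites, and 1 for the stage difference of Gata6. That minimum also takes members out of the test. atp2a2a, the only member called against Gata6 morphants, reached 3.21 RPKM at most and was not tested there. With no minimum, double against Gata6 morphants at 6-somites gave 0. Scaling by median of ratios gave 4 for double against Gata6 morphants at bud.

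Fitting each stage alone gave, at bud, 0 for Gata6 and 0 for double against Gata6 morphants. At 6-somites it gave 2 for Gata5, 4 for Gata6, 14 for double morphants, 15 against Gata5 and 5 against Gata6 morphants. The replicate block gave 4 for Gata6 at bud and 5 for double against Gata5 morphants at 6-somites, and of the members called it ended the stage call of unc45b and no other. limma-voom gave 6 for double against Gata5 morphants (5 with no minimum), 1 for the stage difference of Gata6 (1 with no minimum) and 4 for double against Gata6 morphants at bud.

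Without the 5 libraries high in fast muscle genes, a choice made after the data were seen, the counts were 4 for Gata5, 4 for double and 7 for double against Gata6 morphants at bud. At 6-somites they were 2 for Gata6, 5 for double against Gata5 and 3 for double against Gata6 morphants, and 1 for the stage difference of double morphants. Leaving out 1 library gave 0 to 5 calls for Gata6 at bud, 0 to 1 for double morphants at 6-somites, 13 to 28 for WT between the stages, 0 to 2 for the stage difference of Gata6 and 1 to 6 for double against Gata6 morphants at bud. It gave 0 to 0 for double against each single morphant at 6-somites, where a lone library is assumed to vary like the other groups. The share of all genes that passed is not given beside the counts in this section. They show dependence on the processing and are not read as results about the members. The causes were not tested.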
